A study of Mus musculus with 8 samples.

Results

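Genes of the non-parenchymal cells of the liver were followed in mice that lack the N-terminal part of the Lamin B receptor. The set holds 10 genes, 6 of hepatic stellate cells and the matrix (Col1a1, Col1a2, Col3a1, Dcn, Lrat and Reln) and 4 of endothelium (Stab2, Clec4g, Kdr and Pecam1). They were chosen by name as markers of these cells, out of 49671 gene IDs in the count table, and all 10 were among the 13117 genes tested. Whole liver RNA was sequenced in 8 libraries, 2 from each sex of WT and of NT-KO mice (male WT 1 names the first library of WT males). All mice were C57BL/6 (C57BL/6N in the study's methods) and post weaning, and no treatment is given. NT-KO mice are homozygous for 1 deletion allele in Lbr, which removes the canonical start codon in every cell of the body, so the mutation was not confined to any cell type of the liver. The labels do not say that the 2 libraries of a group came from separate animals, so the p-values measure the spread between these libraries.

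Hepatic stellate cells lie between hepatocytes and the sinusoid wall, store vitamin A as retinyl esters, and are the main source of fibrillar collagen when they become activated in fibrosis. Sinusoidal endothelial cells form a fenestrated wall without a complete basement membrane and clear waste macromolecules from the blood through scavenger receptors. Signals pass between these cells in both directions, for instance VEGF acting on the endothelium and PDGF acting on stellate cells.

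Library totals lay between 45020377 and 64396291 counts, and the 10 genes took from 0.0272% to 0.0419% of them. The lowest count of any of the genes in any library was 101 (Col1a1), well above the 3 counts taken as the floor. The targeted gene Lbr lay at 6.54 to 7.99 CPM (counts scaled to the library total and by TMM) in the 4 WT libraries and at 12.8 to 14.0 CPM in the 4 NT-KO libraries. The table counts reads over the whole gene, so it does not check the deleted stretch itself. Male WT 2 stood apart in genes for chaperones of the endoplasmic reticulum, whose 14 genes summed to 9010 CPM against 2417 to 4342 CPM in the other 7 libraries.

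RefSeq windows (250 bases before and 50 after the start, GRCm38.p6) were found for 7 of the 10 genes. Those of 3 endothelial and 2 stellate or matrix genes are shown, to set genes whose libraries were separated by sex (Stab2 and Clec4g) beside ones whose libraries overlapped. Only bases before the start that lie in no annotated exon of the gene are given, 5′ to 3′ on the gene's strand. Capitals mark 6 short words, read on both strands: CCAAT of the box of that name, TATAAA of the TATA box, GGGCGG of the GC box, CAGGAAG as a core of ETS factor sites, AGATAAG as one of GATA factor sites and CAGACA as one of SMAD sites. The windows lie at chr10:87008026-87008192 (Stab2, minus strand), chr8:3720652-3720901 (Clec4g, minus), chr5:75978459-75978705 (Kdr, minus), chr1:45311288-45311537 (Col3a1, plus) and chr3:82903975-82904224 (Lrat, minus).
Stab2: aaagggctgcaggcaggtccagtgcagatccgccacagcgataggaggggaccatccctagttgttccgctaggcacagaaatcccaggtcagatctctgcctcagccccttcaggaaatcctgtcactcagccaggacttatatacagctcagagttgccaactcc
Clec4g: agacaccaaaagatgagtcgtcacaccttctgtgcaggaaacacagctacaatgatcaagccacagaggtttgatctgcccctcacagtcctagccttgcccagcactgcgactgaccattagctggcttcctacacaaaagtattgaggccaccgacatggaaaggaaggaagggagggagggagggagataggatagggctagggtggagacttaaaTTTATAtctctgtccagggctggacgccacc
Kdr: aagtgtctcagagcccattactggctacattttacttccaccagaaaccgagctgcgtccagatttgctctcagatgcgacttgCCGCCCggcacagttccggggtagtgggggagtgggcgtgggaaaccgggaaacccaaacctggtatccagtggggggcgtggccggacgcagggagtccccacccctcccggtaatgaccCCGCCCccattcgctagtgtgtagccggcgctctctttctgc
Col3a1: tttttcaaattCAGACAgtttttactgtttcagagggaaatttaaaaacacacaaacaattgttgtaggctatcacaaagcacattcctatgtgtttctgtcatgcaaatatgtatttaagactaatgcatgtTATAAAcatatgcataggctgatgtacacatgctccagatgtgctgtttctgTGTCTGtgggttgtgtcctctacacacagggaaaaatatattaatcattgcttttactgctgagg
Lrat: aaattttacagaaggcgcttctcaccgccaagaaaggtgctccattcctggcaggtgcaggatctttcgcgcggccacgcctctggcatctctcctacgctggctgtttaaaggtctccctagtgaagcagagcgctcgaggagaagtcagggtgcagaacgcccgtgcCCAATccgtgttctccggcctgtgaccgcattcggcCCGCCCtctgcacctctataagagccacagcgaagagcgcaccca

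The Clec4g window held TATAAA on the opposite strand at position -31 from the start, letters found within 250 bases in 12.4% of 32851 windows. That of Kdr held GGGCGG on the opposite strand at -166 and -45, against 32.7% of windows with at least 1 match. The Col3a1 window held CAGACA at -239 and, on the opposite strand, at -65 (17.1% of windows), and TATAAA at -117. Lrat held CCAAT at -81 (33.8% of windows) and GGGCGG on the opposite strand at -45. The shorter Stab2 stretch of 167 bases held none of the 6 words, and neither CAGGAAG (10.8% of windows) nor AGATAAG (2.7%) was found in any of the 5 stretches.

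Compared per length, the genes spanned a wide range of levels. Over the 8 libraries, Dcn (decorin, a small proteoglycan that binds collagen) had 24.1 ± 3.43 CPM per kb of exon and Clec4g (a C-type lectin of sinusoidal endothelium) had 23.4 ± 3.72 (SD, n = 8 for each gene), and these 2 did not differ beyond their spread. Stab2 followed at 4.45 ± 0.989 CPM per kb, Lrat at 3.78 ± 0.820 and Kdr at 3.30 ± 0.691, neighbours that again lay within their spread. Pecam1 (1.86 ± 0.324 CPM per kb), Col3a1 (1.83 ± 0.309) and Reln (1.80 ± 0.251) could not be ordered. Col1a2 at 0.631 ± 0.0981 and Col1a1 at 0.413 ± 0.0904 CPM per kb were the lowest, each apart from its neighbour by more than the spread. With the longest transcript as the length in place of all exons, Clec4g (39.9) came before Dcn (29.9 CPM per kb), and Kdr (5.03) and Reln (3.66) each moved up 2 places.

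**Figure D1:**
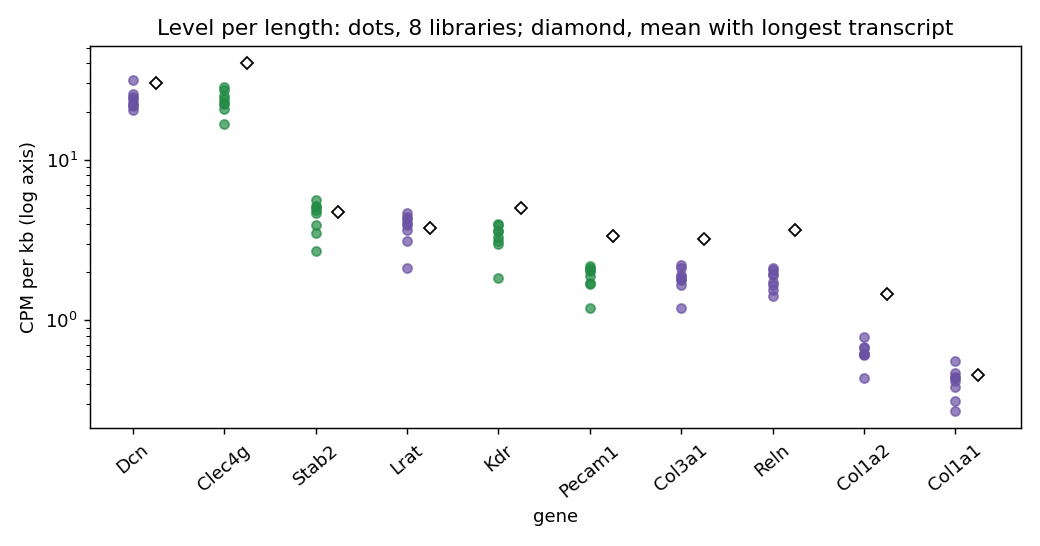
Level of each gene per kb of exon on a log axis (CPM per kb), with a dot for each of the 8 libraries (purple, stellate or matrix; green, endothelial) and a diamond for the mean when the longest transcript gives the length. Dcn and Clec4g lie above the other 8 genes in every library, and Col1a2 and Col1a1 are lowest.

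None of the 10 genes passed the test between NT-KO and WT livers in either sex. In the edgeR quasi-likelihood test, 0 of 10 were called in males, where 0.0152% of all genes tested were called, 0 in females (0.00762%) and 0 over both sexes together (0.0152%), a call being an FDR of at most 0.05 with an absolute log2 fold change over 1. At an unadjusted p under 0.05 the counts were also 0 in all 3 comparisons. Of all genes, 6.03% were higher and 5.5% lower in males, 0.869% and 0.679% in females, and 3% and 2.42% over both sexes. The likelihood ratio test and DESeq2 called 0 of the 10 as well. Of all genes they called 205 and 218 in males, 11 and 5 in females, and 38 and 39 over both sexes. The 95% intervals of the 10 genes bound the differences that 2 libraries a group leave possible. The widest were those of Col1a1, from -0.91 to 0.62 in males and from -1.17 to 0.35 in females on the log2 scale.

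The fibrillar collagens are described first. Col1a1 (chr11:94936224-94953042, plus strand), the first chain of type I collagen, had 2.77 and 2.93 CPM in WT males, 2.05 and 3.09 in NT-KO males, 3.68 and 2.51 in WT females, and 2.86 and 1.79 in NT-KO females. Col1a2 (chr6:4504814-4541544, plus), the second chain, had 7.61 and 7.67 CPM in WT males, 5.43 and 8.39 in NT-KO males, 9.79 and 7.67 in WT females, and 8.46 and 7.69 in NT-KO females. Col3a1 (chr1:45311538-45349706, plus), type III collagen of the reticular fibres, had 17.7 and 18.9 CPM in WT males, 11.8 and 21.9 in NT-KO males, 20.7 and 17.6 in WT females, and 18.4 and 16.4 in NT-KO females. In all 3 genes the WT and NT-KO libraries overlapped in both sexes, and male NT-KO 1 was the lowest of the 8 libraries for Col1a2 and Col3a1, while female NT-KO 2 was the lowest for Col1a1. The log2 fold changes in males were -0.15 for Col1a1 (SE 0.33), -0.14 for Col1a2 (SE 0.24) and -0.12 for Col3a1 (SE 0.27), with edgeR FDRs from 0.870 to 0.909. In females they were -0.41 (SE 0.33), -0.11 (SE 0.24) and -0.14 (SE 0.27), each with an FDR of 1. The direction in males rested on male NT-KO 1: without it the values were 0.12, 0.14 and 0.26.

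The remaining stellate or matrix genes also overlapped between genotypes. Dcn (chr10:97479609-97518143, plus) had 144 and 120 CPM in WT males, 132 and 184 in NT-KO males, 139 and 127 in WT females, and 129 and 150 in NT-KO females. Lrat (chr3:82892579-82903973, minus), the enzyme that esterifies retinol for storage, had 19.6 and 16.8 CPM in WT males, 11.3 and 24.9 in NT-KO males, 20.9 and 22.8 in WT females, and 23.7 and 21.8 in NT-KO females. Reln (chr5:21884454-22344702, minus), a secreted glycoprotein that quiescent stellate cells make, had 50.1 and 33.7 CPM in WT males, 46.5 and 45.3 in NT-KO males, 39.3 and 41.4 in WT females, and 36.7 and 49.2 in NT-KO females. The 2 male NT-KO libraries held the lowest and the highest Lrat level of all 8, and their mean lay near that of male WT (log2 fold change -0.0045, SE 0.32, edgeR FDR 0.999). For Dcn the log2 fold changes were 0.26 in males (SE 0.21, FDR 0.682) and 0.07 in females (SE 0.21, FDR 1), and for Reln 0.13 (SE 0.22, FDR 0.870) and 0.09 (SE 0.22, FDR 1). Lrat in females stood at 0.06 (SE 0.31, FDR 1).

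**Figure D2:**
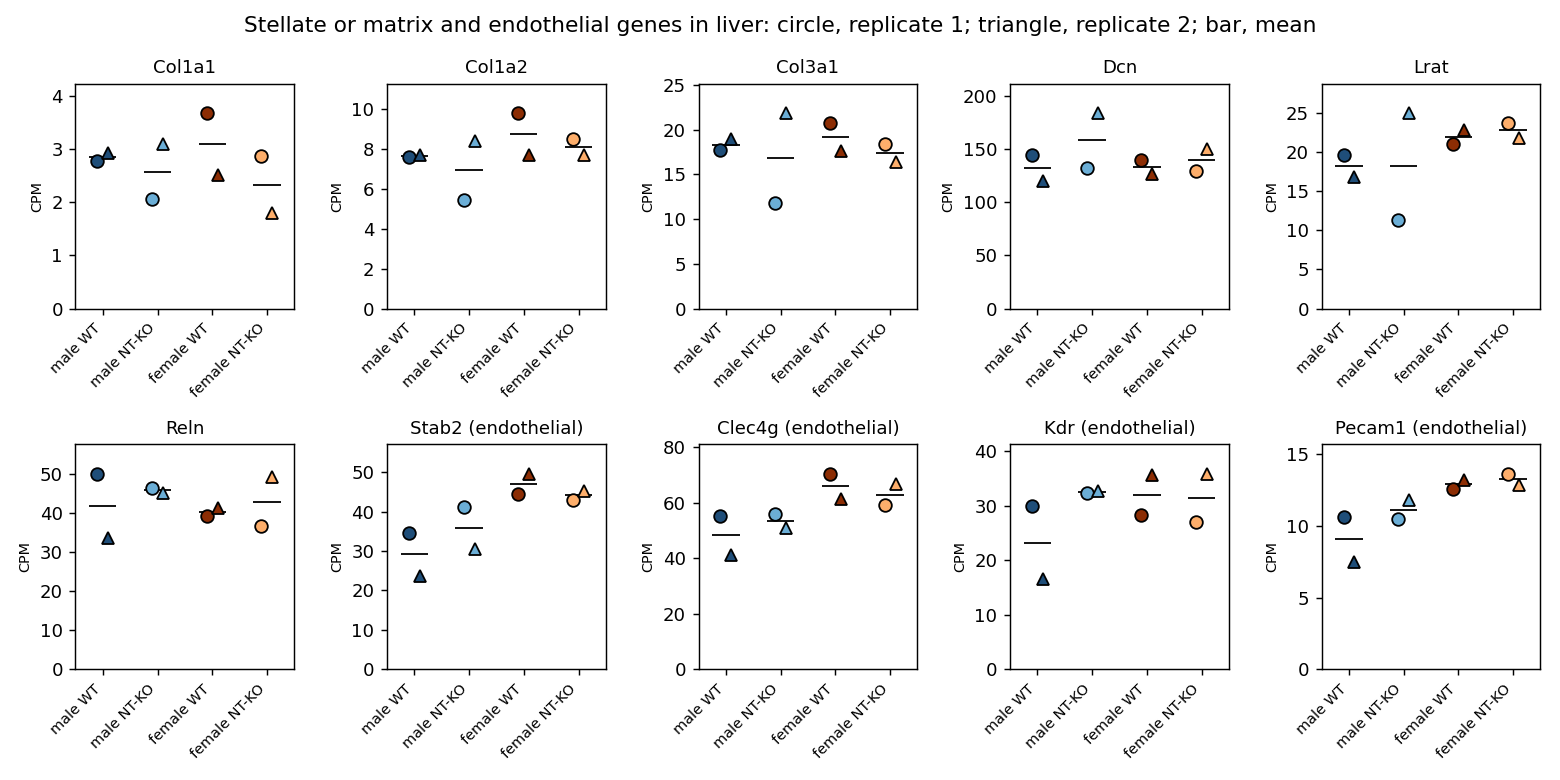
CPM of the 10 genes in each library by group (circles, replicate 1; triangles, replicate 2; bars, group means), with every axis from 0. Stab2, Clec4g and Pecam1 lie higher in all 4 female libraries than in all 4 male ones, and the 2 male NT-KO libraries are far apart for Lrat (11.3 and 24.9 CPM) and Col3a1 (11.8 and 21.9 CPM).

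The endothelial genes had their lowest level in 1 male WT library. Stab2 (chr10:86841198-87008025, minus), the scavenger receptor for hyaluronan, had 34.5 and 23.8 CPM in WT males, 41.0 and 30.5 in NT-KO males, 44.5 and 49.6 in WT females, and 43.0 and 45.2 in NT-KO females. Clec4g (chr8:3707064-3720651, minus) had 55.2 and 41.2 CPM in WT males, 55.9 and 50.8 in NT-KO males, 70.4 and 61.4 in WT females, and 59.0 and 66.7 in NT-KO females. Male WT 2 was the lowest library for both, and in both the females lay above all males.

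Kdr (chr5:75932827-75978458, minus), the main signalling receptor for VEGF-A, had 29.9 and 16.5 CPM in WT males, 32.4 and 32.7 in NT-KO males, 28.3 and 35.7 in WT females, and 27.0 and 35.9 in NT-KO females. Pecam1 (chr11:106654217-106750628, minus), the pan-endothelial adhesion molecule CD31, had 10.7 and 7.48 CPM in WT males, 10.5 and 11.8 in NT-KO males, 12.6 and 13.2 in WT females, and 13.6 and 12.9 in NT-KO females. Male WT 2 was again the lowest of the 8 libraries for both genes. Kdr was the 1 gene of the 10 whose male NT-KO libraries both lay above both male WT libraries, an order that 19.6% of all genes tested showed in this direction and 19.2% in the other. No gene of the 10 was separated by genotype in females (12.2% of all genes higher, 14.2% lower in NT-KO).

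In males all 4 endothelial genes had fitted values above 0 in NT-KO (51.6% of all genes tested), without a call. The log2 fold change was 0.48 for Kdr (SE 0.28, edgeR FDR 0.549), 0.29 for Stab2 (SE 0.22, FDR 0.652), 0.29 for Pecam1 (SE 0.20, FDR 0.608) and 0.15 for Clec4g (SE 0.18, FDR 0.816). Without male WT 2 these values were 0.12, 0.05, 0.06 and -0.05. In females they were -0.02 for Kdr, -0.09 for Stab2, 0.04 for Pecam1 and -0.07 for Clec4g (SE 0.18 to 0.28, FDR 1 for each). The NT-KO effect was not shown to differ between the sexes for any of the 10 genes (0 called, against 0.0152% of genes tested). At an unadjusted p under 0.05 the count was 0, against 3.67% of all genes above 0 and 3.53% below. DESeq2 and the likelihood ratio test called 0 of the 10, against 62 and 46 of all genes. The largest such difference among the 10 genes was that of Kdr, 0.51 (SE 0.39, FDR 0.791).

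Between the sexes, 3 of the 4 endothelial genes had libraries that did not overlap. The 4 male libraries had 32.4 ± 7.24 CPM of Stab2 and the 4 female libraries 45.6 ± 2.84 (SD, n = 4). For Clec4g the values were 50.8 ± 6.80 and 64.4 ± 5.13 CPM, and for Pecam1 10.1 ± 1.84 and 13.1 ± 0.459. In these 3 genes every male library lay below every female library, against 8.5% of all genes tested in this direction and 7.6% in the other. Kdr, at 27.9 ± 7.66 CPM in males and 31.7 ± 4.72 in females, overlapped.

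The differences did not pass the correction for 13117 genes. Male vs female over both genotypes, the edgeR log2 fold change was -0.50 for Stab2 (SE 0.15, 95% interval -0.85 to -0.14, FDR 0.0859), -0.38 for Pecam1 (SE 0.14, interval -0.70 to -0.06, FDR 0.127) and -0.34 for Clec4g (SE 0.13, interval -0.64 to -0.05, FDR 0.137). Kdr stood at -0.21 (SE 0.20, interval -0.66 to 0.25, FDR 0.542). Thus edgeR's quasi-likelihood test called 0 of 10 genes, where it called 4.19% of all genes. The likelihood ratio test and DESeq2 also called 0 of 10, against 678 and 656 of 13117 genes. At an unadjusted p under 0.05, 3 of 10 were lower in males, where 13.8% of all genes were. The FDR of Stab2 alone fell to 0.0457 in the likelihood ratio test and 0.0364 in DESeq2, still without a change of over 1 on the log2 scale. Male WT 2 added to these values. Without it they were -0.37 for Stab2, -0.26 for Pecam1, -0.25 for Clec4g and -0.02 for Kdr. Leaving out a library cannot make separated libraries overlap, so it does not check the order of the first 3 genes.

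Of the 6 stellate or matrix genes, the libraries of 0 were separated by sex. Over all genes tested 8.5% were separated with males lower and 7.6% with males higher, so 0 of 6 lies near those shares. Lrat had the largest fitted value at -0.29 (SE 0.22, interval -0.81 to 0.22, edgeR FDR 0.434), from 18.2 ± 5.67 CPM in males and 22.3 ± 1.19 in females (SD, n = 4). This value was -0.06 without male NT-KO 1 and -0.63 without male NT-KO 2, and in the latter case alone its FDR was under the threshold, at 0.0284. Col1a2 stood at -0.21 (SE 0.17, FDR 0.464) and the other 4 between -0.06 (Col3a1) and 0.09 (Dcn).

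**Figure D3:**
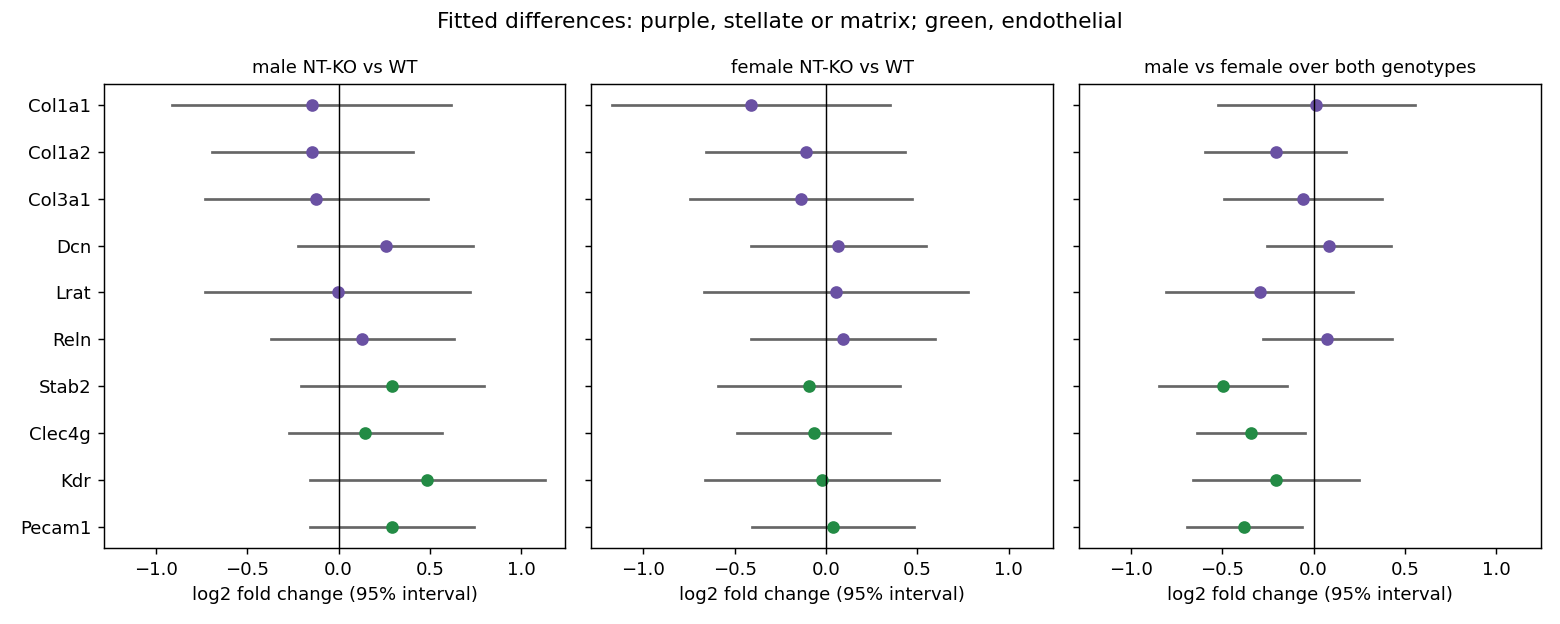
Fitted log2 fold changes (x axis) of the 10 genes with 95% intervals in male NT-KO vs WT, female NT-KO vs WT and male vs female. The intervals of Stab2, Clec4g and Pecam1 lie below 0 in the male vs female panel, and every interval of the genotype panels spans 0.

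Most genes of the wider endothelial lists had fitted values below 0 in males. A sinusoidal list, which leaves out the 4 genes above, had 19 tested genes. Of these, 17 had fitted values below 0 in males, against 48.9% of all genes tested. At an unadjusted p under 0.05, 10 were lower, against 13.8% of all genes. The median log2 fold change was -0.39 against 0.0094 over all genes tested. Clec1b, a C-type lectin of sinusoidal endothelium, had 5.68 to 10.99 CPM in males and 10.7 to 14.2 CPM in females, which overlapped, and fell by 0.66 on the log2 scale (edgeR FDR 0.0423). Of 24 genes of a general endothelial list 22 were below 0 (48.9% of all genes), with a median of -0.34. At an unadjusted p under 0.05, 8 were lower (13.8% of all genes).

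Among these 24 genes 1 was called, where 4.19% of all genes tested were. This was Sox7, a transcription factor of endothelial cells. It had 1.55, 0.94, 1.79 and 1.77 CPM in the male libraries and 3.53, 3.35, 3.53 and 3.96 CPM in the female ones. The 2 sexes did not overlap, and the log2 fold change was -1.26 (SE 0.20, edgeR FDR 0.0075). Robo4, an endothelial guidance receptor, passed the FDR at -0.68 (FDR 0.0393). It had 4.77 to 10.3 CPM in males and 9.36 to 13.8 CPM in females, which overlapped.

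Of the 12 tested genes of a VEGF list (ligands, receptors and co-receptors) 10 were below 0 (48.9% of all genes), with a median of -0.28. The list shares Flt1, Tek and Tie1 with the endothelial list and Flt4 with the sinusoidal list. Nrp2, a co-receptor for VEGF-C, was the 1 of 12 called (4.19% of all genes), at -1.06 (SE 0.16, edgeR FDR 0.0061). It had 7.91 and 7.29 CPM in WT males, 13.0 and 16.96 in NT-KO males, 15.4 and 22.2 in WT females, and 24.2 and 28.8 in NT-KO females. The male NT-KO and female WT libraries overlapped.

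Genes around the stellate cell and matrix moved in both directions between the sexes. Of 21 tested stellate genes 13 had fitted values below 0 in males (48.9% of all genes) and 8 above. The median log2 fold change was -0.09. At an unadjusted p under 0.05, 5 were lower (13.8% of all genes) and 2 higher (13.1%). In 5 every male library lay below every female one (8.5% of all genes), and in 0 above (7.6%). The same order, males lower, held for 4 of 19 sinusoidal and 5 of 24 endothelial list genes. Of the 21 stellate genes 1 was called, where 4.19% of all genes were. Steap4, a metalloreductase, was called higher in males (1.16, SE 0.21, edgeR FDR 0.0139), with 276 and 225 CPM in WT males, 78.2 and 126 in NT-KO males, and 50.7 to 81.5 in the 4 female libraries. Male NT-KO 1 lay within the female range.

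Of 27 tested matrix genes 21 were below 0 (48.9% of all genes), with a median of -0.23. At an unadjusted p under 0.05, 6 were lower (13.8% of all genes) and 3 higher (13.1%). Col4a2, a chain of basement membrane collagen, rose by 0.68 (FDR 0.0216) in males. Of 15 genes that process or fold collagen, 9 were below 0 (median -0.05), and Ppib, a prolyl isomerase of the endoplasmic reticulum, was higher by 0.68 (edgeR FDR 0.0306). Of 17 genes of stellate cell activation, Tgfbr2, a TGF-beta receptor, was higher by 0.69 (FDR 0.0361) and Pdgfb, a growth factor that acts on stellate cells, lower at -0.99 (FDR 0.0308), and the median was -0.20. Pdgfb had 0.441 and 0.425 CPM in WT males, 1.12 and 0.877 in NT-KO males, and 1.10 to 1.49 in females, so the sexes overlapped. Of 16 retinoid genes 12 were below 0 (48.9% of all genes), with a median of -0.06, and none passed the FDR in edgeR's quasi-likelihood test. At an unadjusted p under 0.05, 1 was higher (13.1% of all genes) and 3 were lower (13.8%).

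**Figure D4:**
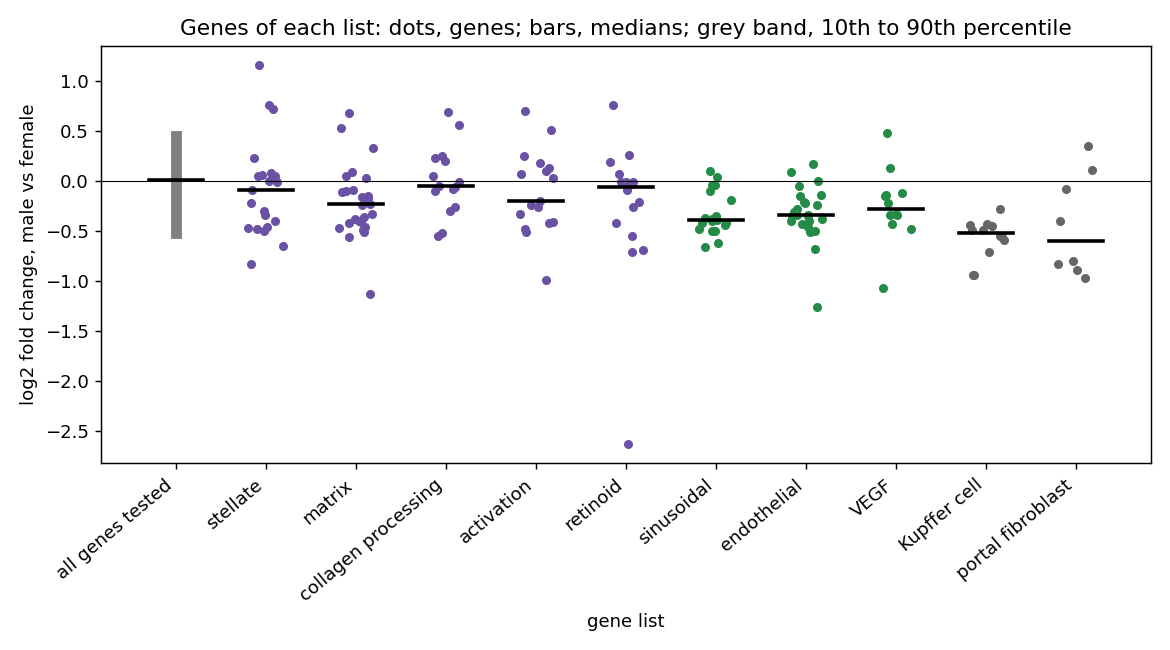
Log2 fold changes of single genes, male vs female, by list (dots; black bars, medians), beside the 10th to 90th percentile of all genes tested (grey). Medians are -0.39 for the sinusoidal and -0.34 for the endothelial list, -0.60 for the portal fibroblast and -0.52 for the Kupffer cell list, -0.23 for the matrix and -0.20 for the activation list, and -0.09 for the stellate and -0.06 for the retinoid list.

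Markers of other cells also differed between the sexes. All 12 Kupffer cell genes had fitted values below 0 in males, 9 at an unadjusted p under 0.05 (13.8% of all genes tested) and 7 with no overlap of libraries (8.5%), with a median of -0.52. Their summed level was 228 to 383 CPM in males and 410 to 483 CPM in females, and Folr2, a folate receptor of resident macrophages, passed the FDR at -0.94 (edgeR FDR 0.0452). A portal fibroblast list of 12 genes, 8 of them tested, summed to 15.6 to 28.1 CPM in males and 28.2 to 31.7 CPM in females, and a T and NK cell list of 8 genes, 2 of them tested, to 1.29 to 2.18 and 4.11 to 7.54 CPM. The hepatocyte list overlapped in its summed level, at 89684 to 119149 CPM in males and 89629 to 106011 in females. Of its 10 genes, 4 were higher in males at an unadjusted p under 0.05, where 13.1% of all genes tested were, and 0 lower, with a median of 0.23. None of the Kupffer cell, portal fibroblast or T and NK cell markers was at 0 in any library. In whole liver, fewer cells of a type and less RNA per cell cannot be told apart, and the part of these other cells in the endothelial values was not tested.

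In NT-KO vs WT, no gene of these lists passed the FDR in edgeR's quasi-likelihood test, in males, in females or over both sexes. The likelihood ratio test, which called 205 of all genes tested in males, is not given for these lists. In males, 23 of 24 endothelial list genes (median 0.31), 17 of 19 sinusoidal genes (0.25) and 11 of 12 VEGF genes (0.26) had fitted values above 0. Over all genes tested 51.6% did. Of the list genes 3, 2 and 2 had an unadjusted p under 0.05 with this sign (6.03% of all genes tested). The 3 lists share genes, so their counts are not independent. Male WT 2 was the lowest library in each, averaging -0.56, -0.46 and -0.45 log2 units after centring each gene on its mean. In females the same lists lay on the other side, with 19 of 24 (median -0.11), 16 of 19 (-0.16) and 8 of 12 (-0.10) below 0. Over all genes tested 49.7% were below 0 there. Lyve1, a hyaluronan receptor of lymphatic and sinusoidal endothelium, had 4.87 and 4.84 CPM in WT males, 3.01 and 2.88 in NT-KO males, 6.15 and 6.08 in WT females, and 4.74 and 3.12 in NT-KO females. The NT-KO libraries lay below those of WT without overlap in males (as in 19.2% of all genes tested), in females (14.2%) and over both sexes together (0.587%). Lyve1 is named because it had the smallest unadjusted p of the sinusoidal list in this direction. The difference did not pass, at -0.72 in males (edgeR FDR 0.320) and -0.64 in females (FDR 1), or -0.68 over both (FDR 0.669).

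Of the stellate list, Steap4 stood at -1.30 in male NT-KO (SE 0.29, FDR 0.205). Of the collagen processing list, 10 of 15 genes lay below 0 in male NT-KO (48.3% of all genes tested), with a median of -0.28. At an unadjusted p under 0.05, 6 were lower (5.5% of all genes tested), among them P4ha1, a collagen prolyl hydroxylase, at -1.14 (edgeR FDR 0.160). P4ha1 had 15.5 and 23.8 CPM in male WT against 8.81 to 11.5 CPM in the other 6 libraries. All 14 endoplasmic reticulum chaperone genes lay below 0 in the same comparison, with a median of -1.25, and the part of this in the collagen processing values was not tested.

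Male WT 2 and male NT-KO 1 set most of the spread among the 10 genes. Centred on each gene's mean, the 4 endothelial genes averaged -0.64 log2 units in male WT 2 and -0.07 to 0.25 in the other 7 libraries. The sinusoidal and endothelial lists gave -0.46 and -0.56 in male WT 2, their lowest values, while the endoplasmic reticulum chaperone list gave 1.62, its highest. The part of the chaperone genes in the endothelial values was not tested.

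The 6 stellate or matrix genes averaged -0.37 in male NT-KO 1 and -0.09 to 0.24 elsewhere. In that library 3 tested smooth muscle genes averaged -1.13, 8 portal fibroblast genes -0.71, 16 retinoid genes -0.57 and 27 matrix genes -0.33. Each of these was the lowest of the 8 libraries, and the stellate list stood at 0.01. In summed level the matrix and retinoid lists were highest there, at 870 and 6140 CPM. Summed over all 8 of its genes, the smooth muscle list lay at 5.68 CPM there and at 8.81 to 19.1 CPM elsewhere, with 1 of the 8 at 0. The part of these cells in the collagen values was not tested. Replicates of male NT-KO differed by a median of 0.60 log2 units over the 6 genes, against 0.29 over all genes, and replicates of male WT by 0.52 over the 4 endothelial genes, against 0.22. Both female groups had medians between 0.13 and 0.19 for either set.

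**Figure D5:**
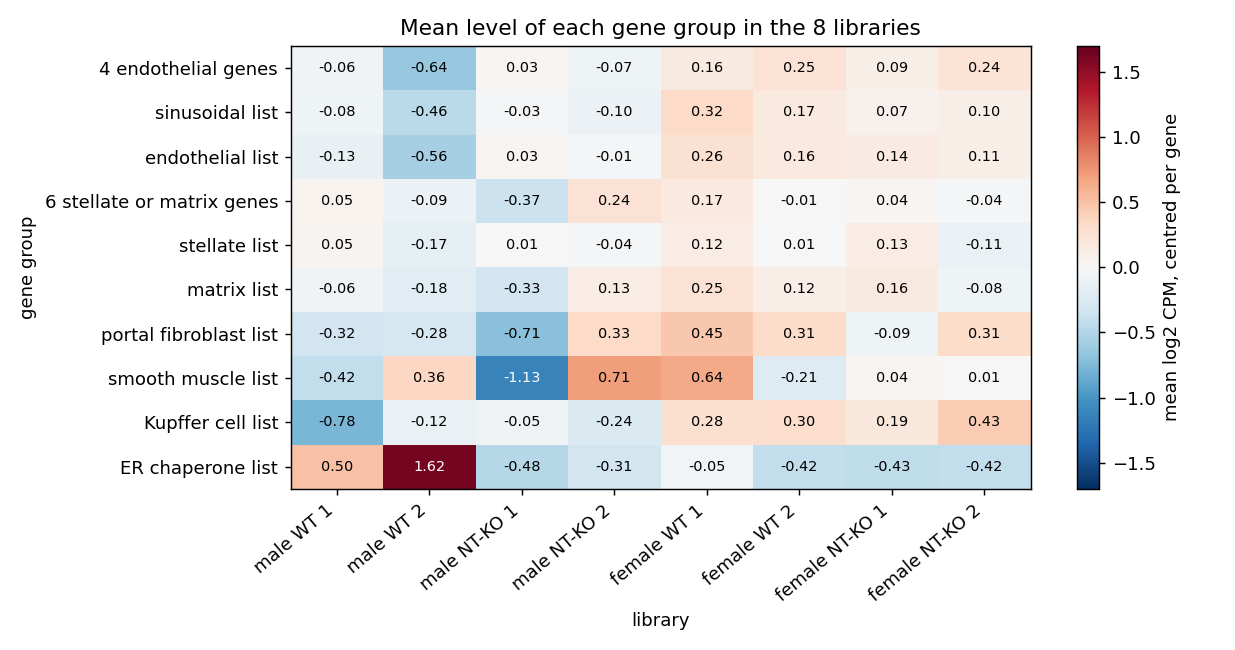
Mean log2 CPM of each gene group in each library, after centring every gene on its mean over the 8 libraries (colour and printed value, red above and blue below the mean). Male WT 2 is lowest in the 3 endothelial rows and highest in the chaperone row. Male NT-KO 1 is lowest for the 6 stellate or matrix genes and in the matrix, portal fibroblast, smooth muscle and chaperone rows.

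The difference between the 2 sets varied from library to library. The endothelial mean minus the stellate or matrix mean was -0.11 and -0.55 log2 units in WT males, 0.39 and -0.31 in NT-KO males, -0.01 and 0.26 in WT females, and 0.06 and 0.27 in NT-KO females. The male groups overlapped and so did the female groups. Among 8896 protein-coding genes whose mean reached 5 CPM, those closest to the endothelial mean profile over the 8 libraries were Colec11 (root mean square difference 0.059 log2 units, a gene of the stellate list), Mapk3 (0.064), Wwox (0.065), Zbtb22 (0.070) and Fam124a (0.071). The 4 closest to the stellate or matrix profile were Stx7 (0.066), Pdcl3 (0.073), Ap3m1 (0.085) and Uchl3 (0.090).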

How the data were processed

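RNA was taken from whole liver with Trizol and made into libraries with the Illumina TruSeq RNA kit. Per the submitters' processing notes and the study's methods, the authors used FastQC and cutadapt, aligned reads to GRCm38 with STAR 2.6.1a and used featureCounts with Ensembl gene models to count them. The deposited values are raw counts, with no normalization. The strand setting and the treatment of multi-mapping reads are not given in the sources used here, so antisense genes cannot be told apart: Gm16553 shares 5.93% of the exon bases of Clec4g, and such overlaps were at most 1.61% for the other 9 genes. Names, positions and lengths came from GENCODE M21 on GRCm38 (49412 of 49671 IDs matched), and the promoter windows from RefSeq.

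With R 4.3.3 and edgeR 4.0.16, a gene entered the tests if 2 or more libraries reached 1 CPM, after mitochondrial, miRNA and rRNA genes had been removed. Library totals (45020377 to 64396291 counts) were scaled by TMM, and edgeR's quasi-likelihood test was run on all 8 libraries with 4 group means, where the study's methods use edgeR's likelihood fit. FDRs are Benjamini-Hochberg values over 13117 genes. A standard error is the log2 fold change divided by the square root of F, and centred values use log2 CPM with a prior count of 2. The code was tested on simulated data. The 10 genes, the marker lists and the tests were chosen with earlier results of these data known. All 10 genes are named, and of each list at most 2 genes up and 2 down past the FDR, or else the smallest unadjusted p in each direction. 1 listed symbol matched no gene ID. Some genes that this rule picks are not reported here. The results were also computed with the likelihood ratio test, with DESeq2 1.42.0, and with other scalings and filters, a replicate block, robust dispersion, 1 sex alone and each library left out. The same libraries serve in the genotype and the sex comparisons, so these are not independent.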

Additional observations from a re-analysis of the deposited data

How the results depend on the processing

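In each of the 5 comparisons 0 of the 10 genes were called under every alternative, the replicate block included, so that block changed no call of theirs. The replicate numbers are not said to pair animals, and the correlation of replicate differences was -0.0067 between the male groups and 0.02 between the female groups. With the male WT numbers crossed, an alternative chosen after seeing the data because male WT and female WT correlated at -0.18, the count was also 0. Over all genes the calls in male NT-KO vs WT were 2 in the quasi-likelihood test, 205 in the likelihood ratio test, 218 in DESeq2 and 667 with no filter beyond 1 count, in females 1, 11, 5 and 172, over both sexes 2, 38, 39 and 205, and for the difference between the sexes 2, 46, 62 and 552. Male vs female, 550 became 1028 without a minimum fold change and 1241 with no filter beyond 1 count. Leaving out 1 library gave 2 to 21 calls in males, 0 in females, 0 to 9 over both sexes, 364 to 561 male vs female and 1 to 7 for the difference.

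Of 920 values of single genes under alternatives, 838 kept their direction and their call and 82 turned in direction, all of them in fits without a call for the gene. Most turned when libraries were left out (each of the 8 in turn and, chosen after seeing the data, male WT 2 with male NT-KO 1). In males, NT-KO vs WT, the log2 fold change ran for Col1a1 from -0.47 to 0.16, Col1a2 from -0.50 to 0.14, Col3a1 from -0.64 to 0.30, Dcn from -0.0041 to 0.48, Lrat from -0.69 to 0.45, Reln from -0.14 to 0.44, Stab2 from -0.18 to 0.58 and Clec4g from -0.12 to 0.37. In females, the log2 fold change ran for Col1a2 from -0.28 to 0.075, Dcn from -0.045 to 0.17, Lrat from -0.0071 to 0.12, Reln from -0.13 to 0.29, Clec4g from -0.16 to 0.033, Kdr from -0.24 to 0.17 and Pecam1 from -0.0055 to 0.080. Over both sexes, the log2 fold change ran for Col1a2 from -0.30 to 0.018, Col3a1 from -0.38 to 0.086, Lrat from -0.31 to 0.26, Reln from -0.024 to 0.27, Stab2 from -0.13 to 0.25 and Clec4g from -0.092 to 0.15. In male vs female, the log2 fold change ran for Col1a1 from -0.15 to 0.20, Col3a1 from -0.31 to 0.13, Dcn from -0.043 to 0.26 and Reln from -0.080 to 0.21. In the difference of the NT-KO effect between the sexes, the log2 fold change ran for Col1a1 from -0.071 to 0.64, Col1a2 from -0.39 to 0.25, Col3a1 from -0.51 to 0.43, Dcn from -0.078 to 0.41, Lrat from -0.75 to 0.40, Reln from -0.24 to 0.34, Stab2 from -0.092 to 0.67 and Clec4g from -0.058 to 0.43. With library size only, which moved the median of all genes by -0.13 in male vs female, Lrat stood at 0.070 in males, NT-KO vs WT (reported as -0.0045), Col1a1 stood at -0.11 in male vs female (reported as 0.015), Dcn stood at -0.043 in male vs female (reported as 0.086), Reln stood at -0.054 in male vs female (reported as 0.075), Col1a2 stood at 0.061 in the difference of the NT-KO effect between the sexes (reported as -0.033), Lrat stood at 0.038 in the difference of the NT-KO effect between the sexes (reported as -0.060). With the replicate block, Col3a1 stood at -0.0020 in the difference of the NT-KO effect between the sexes (reported as 0.015). The prior count of 0.5 moved no difference between the endothelial and the stellate or matrix means beyond the replicate spread. Stab2 male vs female passed the FDR with library size only (-0.63 against a median of -0.12 over all genes, FDR 0.0346) and no filter beyond 1 count (0.0187), and Clec4g (0.0465) and Pecam1 (0.0492) with library size only. Over all its alternatives the FDR of Stab2 ran from 0.0187 to 0.221.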

Other observations

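The ratio of the chains of type I collagen varied little outside 1 library. Col1a1 CPM per Col1a2 CPM was 0.364 and 0.382 in WT males, 0.378 and 0.368 in NT-KO males, 0.376 and 0.328 in WT females, and 0.338 and 0.233 in NT-KO females. Female NT-KO 2 was the low library, and Col1a1 there rested on 117 counts. Col3a1 per Col1a2 lay between 2.11 and 2.61 in all 8 libraries.

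Blood cell genes differed between the sexes as well. An erythroid list summed to 371 to 948 CPM in males and 171 to 321 CPM in females, and Alas2, the heme synthesis enzyme of red cell precursors, had 90.3 to 167 CPM in males and 8.63 to 15.1 CPM in females (log2 fold change 3.22, edgeR FDR 0.000248). A B cell list overlapped in its summed level, at 6.37 to 58.2 and 10.3 to 25.2 CPM, but its single genes differed. Of 7 tested, 4 were called lower in males and 1 higher, where 4.19% of all genes were called. At an unadjusted p under 0.05, 5 were lower (13.8% of all genes) and 1 higher (13.1%). In 4 every male library lay below every female one (8.5% of all genes), and the median log2 fold change was -1.52.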
